A study of Caenorhabditis elegans with 2 samples.

Results

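The 7 chaperone genes described here were examined in the nematode Caenorhabditis elegans for binding of tagged BED-2, which carries a zinc finger of the BED type. They are hsp-1, hsp-3, hsp-4, hsp-6, hsp-60, hsp-90 and hsp-110, chosen by name from 46926 annotated genes as members of the Hsp60, Hsp70, Hsp90 and Hsp110 families. All 7 had at least 1 candidate peak with its summit within 1000 bp of a transcript start, as had 31161 genes in all. Together the 7 genes had 32 of the 82301 candidate peaks of the series.

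The assay was ChIP-seq, in which DNA that is precipitated together with a protein is sequenced, on whole young adult worms aged 63 hours. The labels give a single group of 2 biological replicates. The strain, RW12335, carries the allele st12335, in which TY1, EGFP and 3xFLAG tags were inserted into bed-2 on chromosome III by genome editing, so the fusion is encoded at the bed-2 locus itself. Chromatin was sonicated and precipitated with an antibody against GFP, worms had been synchronised by bleaching and starvation as L1 larvae, and the labels name no heat or other stress treatment. All cells of the animal were pooled, so a peak does not tell in which tissue the fusion was bound. With 1 group there was no second condition to compare, and the input control was not analysed here.

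Chaperones of these families hold unfolded proteins and use ATP to help them fold. In C. elegans each main compartment has its own set. HSP-1 (the constitutive Hsc70), HSP-90 and HSP-110 work in the cytosol and nucleus, HSP-60 and HSP-6 (the mitochondrial Hsp70) in the mitochondrial matrix, and HSP-3 and HSP-4 (both homologues of mammalian BiP) in the endoplasmic reticulum. The transcription factor HSF-1 controls many cytosolic chaperone genes through heat shock elements, which are inverted repeats of the unit GAA spaced by a pair of bases. The unfolded protein responses of mitochondria and of the endoplasmic reticulum act on hsp-6 and hsp-60 and on hsp-3 and hsp-4, respectively.

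A peak is called here where it stands in the authors' conservative list, which holds 615 peaks with a global irreproducible discovery rate (IDR, a measure of how alike the replicates rank a peak) of at most 0.01. These 615 peaks form 566 separate regions. Signal is the authors' own value for each peak, used only to describe and rank peaks within a list, and its median was 88.0 over the called regions and 21.0 over all candidates. The depth of each library is unknown, since the lists hold no read counts.

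A called peak was found at 5 of the 7 genes, and each of these had exactly 1. The sequences below are the summits, with 50 bp on either side, of these 5 peaks and of 2 peaks at other chaperone genes described further on. They are shown because the summit sequences carry different words at different genes. They were read from RefSeq's sequence of ce11, the build of the files, on the plus strand, 5′ to 3′. Capitals mark, on either strand, the word GCGCG, the word CCAAT, the longer word ACGCGC and the heat shock words GAANNTTC and TTCNNGAA, where N is any base. GAANNTTC and TTCNNGAA are the 2 ways in which adjoining units of a heat shock element can be set. Of the 7 windows of other called genes, only those of F44E5.4 with F44E5.5 and of ahsa-1 hold either heat shock word. The windows of bag-1, atf-6, atfs-1, Y22D7AL.10 and F08H9.3 with F08H9.4 hold neither.
hsp-60, chrIII:1619076-1619176: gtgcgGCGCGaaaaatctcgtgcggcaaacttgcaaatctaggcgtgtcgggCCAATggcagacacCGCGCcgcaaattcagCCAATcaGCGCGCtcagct
hsp-90, chrV:14685714-14685814: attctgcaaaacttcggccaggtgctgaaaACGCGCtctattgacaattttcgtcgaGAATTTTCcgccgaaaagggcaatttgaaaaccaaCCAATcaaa
hsp-1, chrIV:17278490-17278590: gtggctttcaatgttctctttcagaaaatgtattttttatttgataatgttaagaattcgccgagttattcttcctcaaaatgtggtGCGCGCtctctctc
hsp-110, chrIII:8447105-8447205: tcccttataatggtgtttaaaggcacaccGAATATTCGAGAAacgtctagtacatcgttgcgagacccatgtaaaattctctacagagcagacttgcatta
hsp-3, chrX:6092097-6092197: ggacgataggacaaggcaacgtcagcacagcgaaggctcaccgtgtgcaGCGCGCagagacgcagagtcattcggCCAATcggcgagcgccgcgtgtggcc
F44E5.4 and F44E5.5, chrII:11759395-11759495: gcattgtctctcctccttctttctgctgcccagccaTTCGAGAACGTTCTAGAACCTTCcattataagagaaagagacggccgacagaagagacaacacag
ahsa-1, chrV:15085557-15085657: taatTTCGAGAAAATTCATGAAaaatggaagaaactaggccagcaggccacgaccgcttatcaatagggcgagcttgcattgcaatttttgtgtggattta

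Called peaks were found at hsp-1, hsp-90 and hsp-110 (cytosol), hsp-60 (mitochondria) and hsp-3 (endoplasmic reticulum), and none at hsp-4 and hsp-6. Of all genes with a candidate summit within reach, 2.98% had a called one (928 of 31161). By compartment, all 3 cytosolic genes were called, and 1 of the 2 genes in mitochondria and in the endoplasmic reticulum each. In the optimal list, the other thresholded list of the series, the same 5 genes were called, against 3.05% of all genes. The genes were chosen with these calls known, so the counts are a description and carry no test.

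Signals of the called peaks ran from 101.7 to 189.9, with a median of 110.5. Those of the 27 candidate peaks that were not called ran from 3.65 to 49.997, with a median of 20.3. At these 7 genes the signals of called and uncalled peaks did not overlap, but a call itself depends on how the replicates rank a peak. Over the whole series the signals did overlap. Called peaks went down to 2.06, and candidates that were not called reached 937.3, above the highest called signal of 458.8. Taking the highest candidate signal of each gene, the median over the 7 genes was 107.5, against 29.1 over all genes. The 7 genes had 3 to 9 candidates each, against a median of 2 over all genes, and a highest value tends to rise with their number. At hsp-110, hsp-90 and hsp-60 the called peak had 9.51, 8.60 and 6.52 times the signal of the next peak of the gene. That ratio was 3.14 at hsp-3 and 2.21 at hsp-1.

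**Figure D1:**
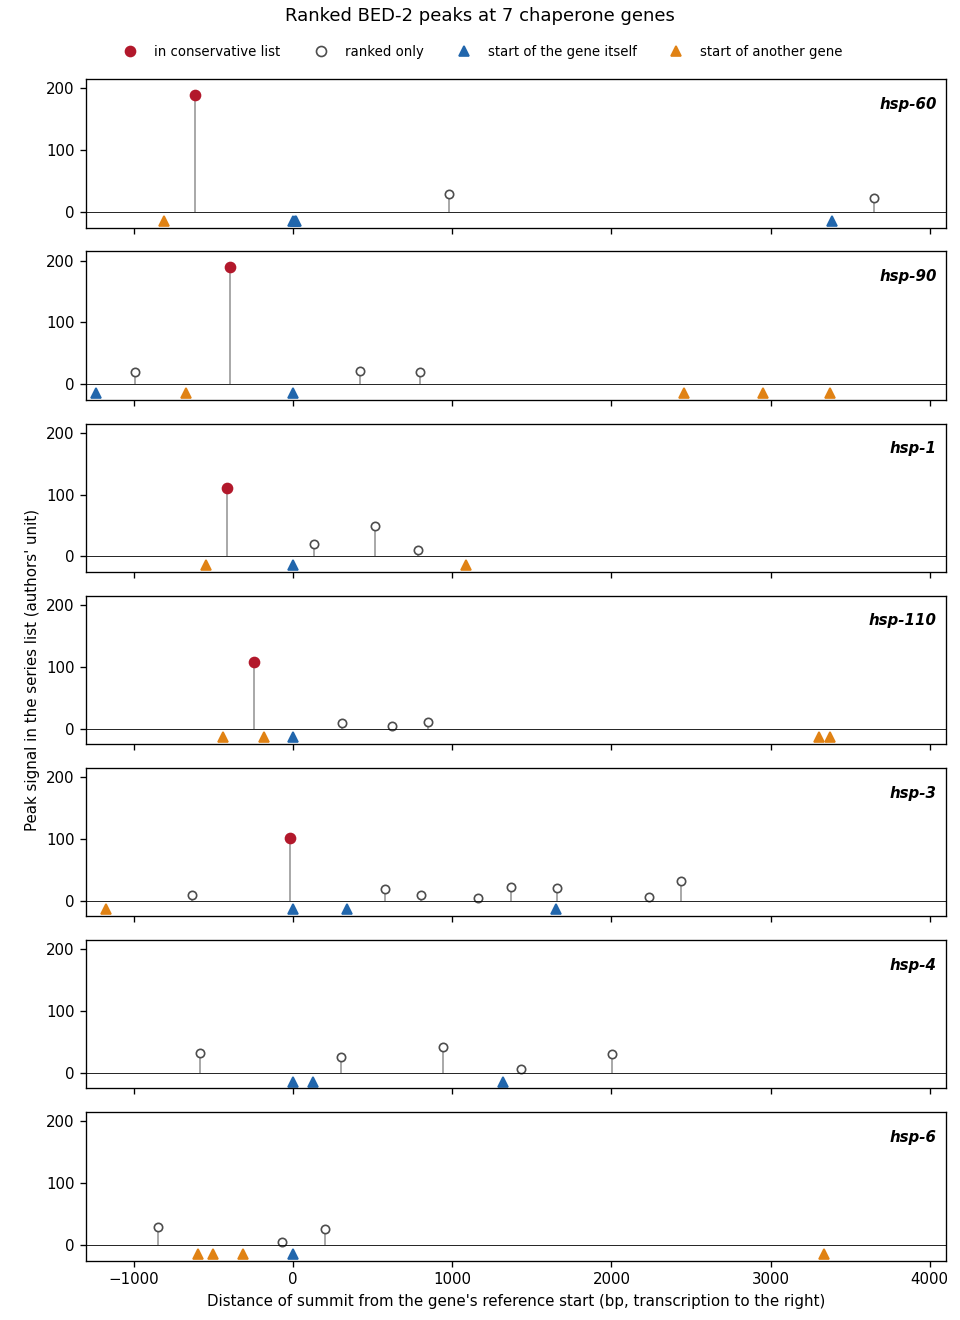
Candidate peaks at the 7 genes, with the distance of each summit from 1 reference start of the gene in bp on the horizontal axis and the signal in the series list (authors' unit) on the vertical axis. The reference start is the one nearest to the strongest peak (for hsp-4, the most upstream one). Filled points are called peaks, open points are candidates that were not called, and triangles are transcript starts. The 5 called peaks stand upstream of the reference start at 101.7 to 189.9, and no open point passes 49.997.

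Among the cytosolic chaperones, hsp-90 (WBGene00000915) encodes the only cytosolic Hsp90 of the worm, also known as daf-21. Its called peak at chrV:14685731-14685833 had a signal of 189.4 and ranked 38 among all candidates, with a global IDR of 3.94e-05. Replicate 1 gave 102.7 and replicate 2 gave 87.6 in their own lists, where the peak ranked 28 and 54. Both replicates thus placed it near the top, and it ranked 3 among the 100 called regions of chromosome V. The summit was 396 bp upstream of the start of transcript C47E8.5.1 and 846 bp downstream of that of the longer C47E8.5.2, and so lies in an intron of the gene by annotation. The nearest start was that of C47E8.4, annotated by RefSeq as a FAM50 homologue, which is transcribed away from the summit and begins 279 bp from it. The other 3 candidates at hsp-90 had signals of 20.2 to 22.02.

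The gene hsp-1 (WBGene00002005) encodes the constitutive Hsp70 of the cytosol. Its called peak at chrIV:17278380-17278699 had a signal of 110.5, a rank of 158 and a global IDR of 0.000502. Its signal was 46.8 in replicate 1 and 66.1 in replicate 2, and both replicates called it in their own lists. The summit lay between genes by annotation, 419 bp upstream of the only hsp-1 start. It was nearer to the start of a non-coding RNA, F26D10.23, which begins 127 bp on the other side of the summit and is transcribed in the direction of hsp-1. A candidate in the coding exon, 514 bp downstream of the start, had the highest uncalled signal of all 7 genes, 49.997, with 19.6 in replicate 1 and 32.2 in replicate 2. Its global IDR was 0.129, and its summit window matches stretches of hsp-3, hsp-6 and the pseudogene WBGene00002006 at up to 93.1% identity.

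HSP-110, from hsp-110 (WBGene00016250), is the nucleotide exchange factor of Hsp70 in protein disaggregation. The called peak at chrIII:8446995-8447314 had a signal of 107.5, a rank of 169 and a global IDR of 0.00133. Its signal was 68.9 in replicate 1, where it ranked 76, but 39.0 in replicate 2, where it ranked 840. The replicates therefore differed, and the peak stood in the list of replicate 1 alone. It was 246 bp upstream of hsp-110 and 198 bp upstream of rpn-3, which encodes a subunit of the proteasome and is transcribed the other way. A non-coding RNA, C30C11.14, had the nearest start, at 60 bp. The other 3 candidates, all in coding exons of hsp-110, had signals of 3.65 to 11.3.

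Among the mitochondrial chaperones, hsp-60 (WBGene00002025) encodes the chaperonin that forms the folding chamber of the matrix. Its peak at chrIII:1618966-1619285 had the highest signal of the 7 genes, 189.9, a rank of 37 and a global IDR of 3.17e-05. The signal was 98.8 in replicate 1 and 92.7 in replicate 2, with ranks of 31 and 41, the closest agreement of the 5 called peaks. The summit lay between hsp-60 and Y22D7AL.10, which point away from each other. It was 616 bp from the nearest hsp-60 start and 197 bp from that of Y22D7AL.10, annotated by RefSeq as a mitochondrial heat shock protein of the Hsp10 type, the partner that caps the HSP-60 chamber. The same peak therefore stands upstream of both subunits of the mitochondrial chaperonin.

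The mitochondrial Hsp70 gene hsp-6 (WBGene00002010), which imports and folds matrix proteins, had no called peak. Its highest candidate, at chrV:4827450-4827769, had a signal of 29.3, with 13.9 in replicate 1 and 15.7 in replicate 2, and a global IDR of 0.538. That signal is close to the median of the highest signals of all genes, at percentile 50.7. The summit was 850 bp upstream of hsp-6, in a coding exon of its neighbour C37H5.5. A candidate 70 bp upstream of the start had only 5.46, and the nearest called summit of the series was 72.3 kb away. The summit of another candidate lay just beyond the limit, 1002 bp downstream of the start, with a signal of 32.5, and the farthest one within it, at 965 bp in hsp-60, had 29.1.

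In the endoplasmic reticulum, hsp-3 (WBGene00002007) encodes a BiP that is also made without stress. Its called peak at chrX:6091987-6092306 had a signal of 101.7, a rank of 195 and a global IDR of 0.00158. The signal was 32.9 in replicate 1, where it ranked 883, and 73.0 in replicate 2, where it ranked 95. The replicates differed in the opposite sense to hsp-110, and only replicate 2 called the peak in its own list. The summit was 23 bp upstream of the start of transcript C15H9.6a.2 and 362 bp upstream of that of C15H9.6a.1. It was the only called peak of the 5 for which the chaperone gene itself had the nearest start. The gene also had the most candidates, 9, against a median of 2 over all genes, and the other 8 had signals of 4.46 to 32.4. It has 3 distinct starts, which widen the stretch searched. Some of the 9 candidates were within reach only of the internal start, that of C15H9.6b.1.

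The second BiP gene, hsp-4 (WBGene00002008), is the strongly stress-induced one and is widely used as a reporter of the unfolded protein response. It had no called peak. The highest of its 5 candidates, at chrII:7351544-7351863, had a signal of 42.5, with 16.7 in replicate 1 and 24.0 in replicate 2, and a global IDR of 0.311. This signal stood at percentile 82.4 among the highest signals of all genes. The summit was in a coding exon, 814 and 941 bp downstream of the starts of the 2 longer transcripts and 375 bp upstream of that of the short one, and its window matches hsp-1, hsp-3 and the pseudogene WBGene00002006 at up to 86.3% identity. Upstream of all starts there was 1 candidate, at 589 bp, with a signal of 32.3, and 57 bp of its window recur elsewhere in the genome, with 107 matches in all. The nearest called summit was 24.1 kb away.

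**Figure D2:**
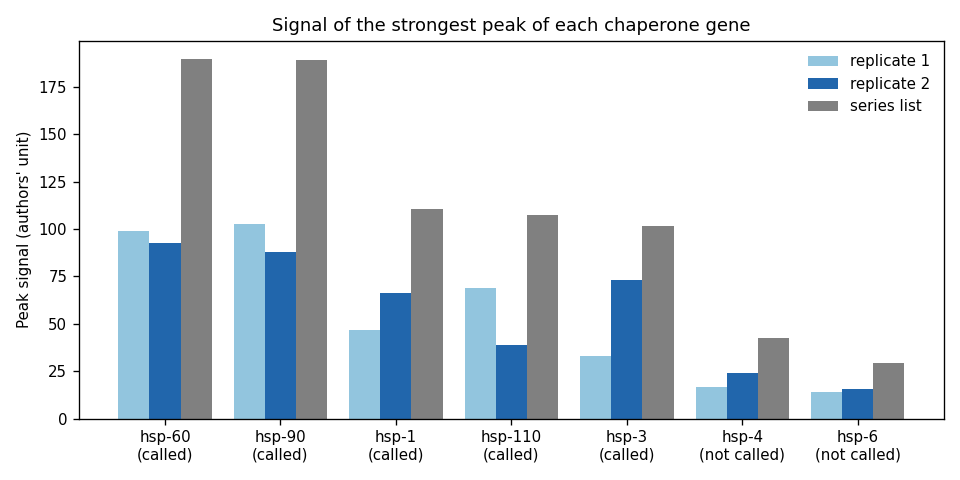
Signal of the strongest peak of each gene in replicate 1, replicate 2 and the series list, as bars from 0 in the authors' unit. The replicates are close at hsp-60 and hsp-90, replicate 1 is the higher at hsp-110 and replicate 2 at hsp-3, and both are below 25 at hsp-4 and hsp-6.

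The replicates were further compared through the ratio of their signals, replicate 1 over replicate 2. Its median was 0.887 over the 562 called regions with a peak in both replicates, with the 5th percentile at 0.547 and the 95th at 1.44. The ratio was 1.07 at hsp-60, 1.17 at hsp-90 and 0.708 at hsp-1, inside that range. It was 1.76 at hsp-110, higher than in 555 of the 562 regions, and 0.451 at hsp-3, higher than in 11 of them. Their peaks thus lie at opposite ends of the spread between replicates, and with 2 replicates of unknown depth no test of this was possible.

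Each replicate's own list gave 4 of the 7 genes, and 3 genes, hsp-1, hsp-60 and hsp-90, were called in both. Of all genes with a candidate within reach, 1.38% were called in replicate 1 (368 of 26751) and 1.54% in replicate 2 (408 of 26421). In the ranking behind the optimal list, the global IDR was 3.93e-05 at hsp-60, 4.64e-05 at hsp-90, 0.000496 at hsp-1, 0.00058 at hsp-3 and 0.000739 at hsp-110. It was 0.284 at hsp-4 and 0.850 at hsp-6.

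**Figure D3:**
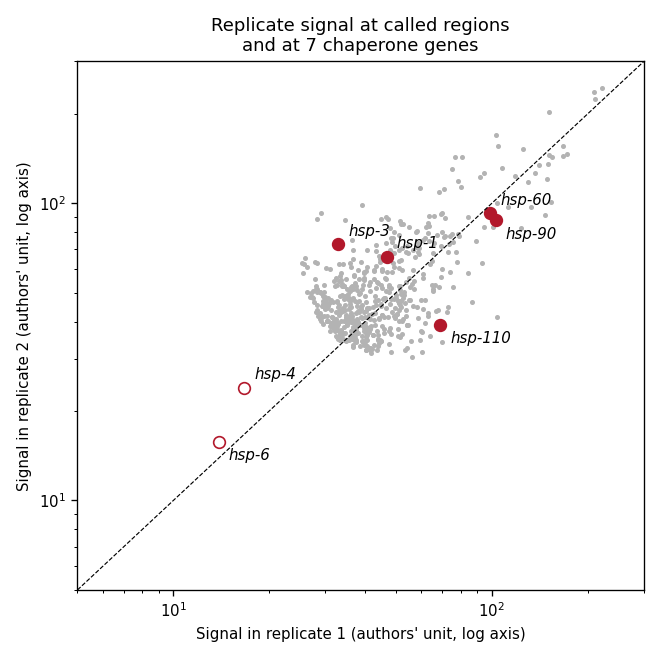
Signal in replicate 1 (horizontal axis) and in replicate 2 (vertical axis), both in the authors' unit on log axes, with the called regions as grey points and the strongest peaks of the 7 genes marked (filled, called; open, not called). The dashed line marks equal signals. The points of hsp-60 and hsp-90 lie near the line, hsp-110 lies below it at a ratio of 1.76 and hsp-3 above it at 0.451.

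Called regions with a like set of 3 signals were found for each of the 5 genes by Euclidean distance on the log2 scale over the series list and both replicates. This likeness is in signal strength alone and says nothing of gene function. The peak most like that of hsp-90 had signals of 187.6, 100.7 and 82.9 in the series list, replicate 1 and replicate 2 (distance 0.0859). Its nearest start was that of C01G10.7, at 140 bp. On its other side, at 225 bp, was ahsa-1, a co-chaperone gene described further on. The peak most like that of hsp-60 was at cdc-48.1, with 195.0, 98.2 and 92.3 (distance 0.0399). For hsp-1 it was nearest to Y54G2A.19 (distance 0.0259), for hsp-110 to T09F3.4 (0.159) and for hsp-3 to F01F1.3 (0.179).

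All 5 called summits were upstream of the nearest start of their chaperone gene, as were 66.5% of the 1018 called pairs of a summit and a gene in the series. Of the 27 uncalled peaks, 20 (74.1%) were downstream and 7 upstream of the nearest start of the gene. Over all genes, 47.4% of uncalled pairs were upstream. The median distance was 396 bp for the 5 called peaks and 224 bp for the called pairs of all genes. Of the 19 candidates between 1000 and 2000 bp from a start of the 7 genes, 0 were called, where 0.747% of all candidates were, and the highest had a signal of 55.0.

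Another gene's start was nearer to the summit than that of the chaperone at 4 of the 5 called peaks. When a peak was assigned only to the gene with the nearest start, hsp-3 was the 1 gene of the 7 that kept a call, against 2.20% of the 25554 genes so assigned. In 3 of the 5 peaks, those of hsp-60, hsp-90 and hsp-110, the summit lay between starts of protein-coding transcripts that point away from each other, although at hsp-90 it is also inside the longer transcript of that gene. The same arrangement of starts was found at 119 of the 566 called regions (21.0%) and at 1.86% of the candidate regions that were not called. At such a peak, the lists do not tell which of the neighbours the binding bears on.

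The summit windows differed in base composition. GC content was 65.3% at hsp-3 and 59.4% at hsp-60, above the median of 50.5% over called regions, while hsp-90 (42.6%), hsp-110 (40.6%) and hsp-1 (36.6%) were nearer to the median of 40.6% over the 63739 regions that were not called. The dinucleotide CG occurred 13 times at hsp-3 and 12 times at hsp-60, against a median of 7 in called regions and 4 in the others.

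GCGCG, a word chosen after the windows had been seen, was present at 4 of the 5 called summits, as the capitals in the sequences above show. It was absent from the hsp-110 window and from those of hsp-4 and hsp-6. Of all called regions 34.8% held it, and of the regions not called 6.08%. ACGCGC, which overlaps it, was present only in the hsp-90 window among the 7 genes, 20 bp before the summit, with 14.3% of called regions and 1.91% of the others holding it. In the 300 bp before each of 29773 distinct starts of protein-coding transcripts, 15.3% held GCGCG and 6.36% held the longer word. The word CCAAT, also chosen after the windows had been seen, was in the windows of hsp-3, hsp-60 and hsp-90 and in both uncalled ones, and was held by 16.6% of called regions and 21.6% of the others. GTACAC, found in 11.0% of called regions and 2.80% of the others, was in none of the 7 windows. Neither was TATCGATA, found in 0% of called regions and 0.108% of the others.

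Words of heat shock elements were present in the summit windows of 3 of the 7 genes. GAANNTTC was in the windows of hsp-90 and hsp-110 among the called peaks and in the coding exon window of hsp-4, and TTCNNGAA, among these windows, only in that of hsp-110. Over the whole width of the strongest peaks, GAANNTTC was also found at hsp-1 and hsp-60 and TTCNNGAA at hsp-60, and neither was found at hsp-3 or hsp-6. In summit windows, the shares of all called regions with these words, 6.01% and 5.12%, were no higher than of regions not called, 6.95% and 6.42%. These shares do not apply to the wider whole peaks, for which none was computed. Of the 300 bp stretches before starts of protein-coding transcripts, 18.8% held GAANNTTC and 18.3% TTCNNGAA. Both words stood before the hsp-1 and hsp-110 starts, the start of the longer hsp-90 transcript and the most upstream hsp-4 start. Only GAANNTTC stood before the start of the short hsp-4 transcript and the most downstream hsp-60 start, and only TTCNNGAA before the remaining hsp-4 start. Neither stood before the other hsp-60 and hsp-90 starts or any start of hsp-3 and hsp-6. In hsp-110 the words overlap and make an unbroken run of 3 alternating units, 21 bp before the summit on the plus strand. A run of 3 units, a definition chosen after the windows had been seen, was found in 12 of the 566 called regions (2.12%) and in 432 of the 63739 others (0.678%). ACGTG, the core of the element bound by XBP-1 in the unfolded protein response, was in none of the windows of the 7 genes. Few windows hold it in any case: 13.4% of those of called regions and 10.7% of the others. Over the whole peaks ACGTG occurred 2 times at hsp-3 and 1 time at hsp-110, with no share over all whole peaks computed. In the 300 bp before transcript starts it occurred 1 time at 2 of the 3 hsp-3 starts and 3 and 4 times at the starts of the 2 longer hsp-4 transcripts, and at no start of the other 5 genes. Such a stretch held it at 26.9% of all starts of protein-coding transcripts.

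None of the 5 called windows had a copy elsewhere in the genome (a match of at least 50 bases at 80% identity). Of the 27 uncalled windows, 12 had one, most often at hsp-3 and hsp-4 and in the coding exons of related Hsp70 genes. The part of such copies in the signals of these candidates was not tested.

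Other genes of the heat shock and stress responses were taken from 5 lists with 53 genes, of which 49 had a candidate within reach. Calls were made for 9 of the 49 (18.4%), through 7 peaks, beside the 2.98% of all genes. Among the 7 peaks are that of hsp-60, which Y22D7AL.10 shares, and that of F08H9.3 and F08H9.4, whose window has 11 copies elsewhere. The median of the highest signals of the 49 genes was 38.3, below the 107.5 of the 7 chaperone genes and above the 29.1 of all genes.

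Among the other cytosolic Hsp70 genes, 2 of 4 were called, F44E5.4 and F44E5.5, which encode heat-inducible Hsp70s. They share 1 peak at chrII:11759285-11759604 with a signal of 151.8, a rank of 57 and a global IDR of 8.17e-05. Replicate 1 gave 74.1 and replicate 2 gave 77.8, so that the replicates were alike. The summit was 134 bp upstream of F44E5.4 and 217 bp upstream of F44E5.5, between the 2 genes. Its window, printed above, held 5 alternating heat shock units in a row. The inducible hsp-70 itself was not called and had a highest signal of 18.8.

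Among the co-chaperones, 2 of 11 were called. Of these, ahsa-1 (C01G10.8) encodes the activator of the Hsp90 ATPase. Its peak, at chrV:15085447-15085766, had a global IDR of 4.55e-05 and a summit 225 bp upstream of the gene. The window of that peak held 4 alternating units. With the F44E5.4 peak and hsp-110, the ahsa-1 peak was 1 of the 12 called regions with at least 3 units. These 3 regions ranked 1, 2 and 4 among the 12 by signal. Just above hsp-110 (107.5) stood a region at F01F1.3 (108.3), which is on none of the lists. The run was defined after the windows had been seen, and the genes were chosen with results known, so these ranks are a description only. The peak of bag-1, an exchange factor of Hsp70, had a signal of 107.8, with 40.5 in replicate 1 and 61.0 in replicate 2. No call was made at sti-1 (highest signal 53.0), cdc-37 (43.5) or daf-41 (37.9), which encode partners of Hsp90.

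Of the small heat shock protein genes, 2 of 14 were called, F08H9.3 and F08H9.4, through 1 peak with a signal of 82.8, with 35.7 in replicate 1 and 47.2 in replicate 2. That summit lies within an annotated small nuclear RNA gene, F08H9.10, and its window has 11 copies elsewhere at up to 99.0% identity, among them other small nuclear RNA genes. The strongly heat-induced hsp-16.2 and hsp-16.41 share a candidate with a signal of 35.3 that was not called.

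Of the organelle homologues and partners, Y22D7AL.10 was called (1 of 6) through the hsp-60 peak. The Hsp90 of the endoplasmic reticulum, enpl-1, had a highest signal of 60.9 and the mitochondrial one, hsp-75, 48.7, and neither was called.

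Among the regulators, 2 of 14 were called. The peak of atf-6, a transcription factor of the endoplasmic reticulum response, had a signal of 78.8, with 32.6 in replicate 1 and 46.6 in replicate 2. That of atfs-1, the factor that drives the mitochondrial response, had 80.7, with 29.7 and 50.5. Both signals lie below the median of called regions, and neither peak was in the list of a single replicate. The gene of the heat shock factor itself, hsf-1, had a highest signal of 26.3 and xbp-1 had 61.3, without a call.

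**Figure D4:**
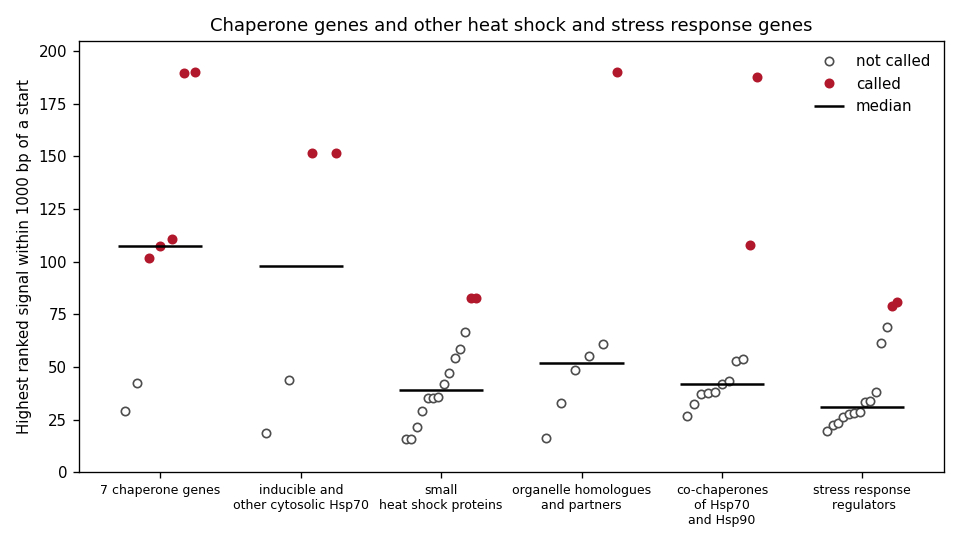
Highest candidate signal within 1000 bp of a start (authors' unit, vertical axis) for the 7 chaperone genes and the genes of 5 other lists, 1 point per gene. Filled points are called genes and bars are medians, and genes that share a peak have equal values. The 7 chaperone genes have a median of 107.5 and the 49 other genes of 38.3.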

How the data were processed

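The 8 peak lists used were deposited by the authors on assembly ce11: 4 of the series and 2 of each replicate. Per text files deposited with the samples, a replicate's lists were made from its own alignment with a control, and those of the series from both replicates. No aligner or peak caller is named in the sources used here. The deposited signal is the authors' value per peak, with its scaling not stated. The deposited score follows from the global IDR, within 1 in 100% of the candidates, and 830 is its lowest value in the thresholded lists. The −log10 of the global IDR was also deposited and was turned back into the IDR.

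Genes and starts came from Ensembl release 115, sequences from the RefSeq genome, and gene descriptions from RefSeq; all peak ends lay inside the reference chromosomes. A gene was called where a summit of the list lay within 1000 bp of any of its starts. The signal of a replicate is the highest among overlapping peaks of its own ranked list. The matched-peak columns of the ranked list do not name their replicate and were used as an alternative only. Those of the other ranked list, 2 columns, were not used. Overlapping called peaks (at least 1 base) were merged into regions. Summits with 50 bp on either side were searched with blastn 2.17.0. Calculations used Python 3.11.15, numpy 2.4.6 and pandas 2.3.3, and plots matplotlib 3.10.9. Offsets and nearest starts were tested on simulated data and recovered for 200 of 200 summits.

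The genes, the other lists and the words were chosen with earlier results of these data known, and no test was run. Named genes are the 7 chaperone genes, the nearest and neighbouring starts of their peaks, every listed gene with a called peak and the called region most like each. The genes of the lists without a call that are named were chosen after their values were seen. Alternatives covered the distance, the list, the IDR threshold, the assignment, the replicate signal and each replicate alone.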

Additional observations from a re-analysis of the deposited data

How the results depend on the processing

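The number of the 7 chaperone genes with a called peak was 5 at 2000 bp, in the optimal list and at a global IDR of 0.05. It was 4 at 500 bp, where hsp-60 dropped out, 3 at a global IDR of 0.001 (hsp-1, hsp-60 and hsp-90) and 1 with the nearest start only (hsp-3). With 1 replicate left out it was 4 each time, losing hsp-110 without replicate 1 and hsp-3 without replicate 2. The median signal of the called peaks was 110.5 in the optimal list, 189.4 at a global IDR of 0.001 and from 68.9 to 73.0 with 1 replicate left out, where the signal is that of a single replicate by construction. The median ratio of the replicates was 1.07 with the matched-peak columns and 1.21 after division by each replicate's median. Of the other genes, 9 were called in the conservative list, 8 at 500 bp, 10 at 2000 bp and in the optimal list. It was 7 genes with the nearest start only and 5 at a global IDR of 0.001. With the nearest start only, F08H9.4, F44E5.5 and ahsa-1 dropped out and pph-5 came in. With 1 replicate left out the number ran from 4 (without replicate 2) to 6 (without replicate 1). Those 6 include clpp-1, which is not among the 9. Where the construction of the alternative does not show it, the cause was not tested. No paired analysis was possible because there is 1 group and no comparison between groups. The unknown depth and the 2 replicates limit what can be said of weak candidates: an uncalled peak is not evidence that binding is absent.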
